A study of Homo sapiens with 18 samples.

Results

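The regions described here were glucocorticoid receptor binding regions (GBR) in gene deserts: peaks of the Hic-5 depleted list (siHic5/siNS) whose summit lay more than 100 kb from every annotated transcription start site (TSS) of a protein-coding gene in GENCODE release 44. Of 9530 siHic5/siNS peaks on annotated chromosomes, 1951 met this rule, which was 20.5% (95% Wilson interval 19.7% to 21.3%). ChIP-seq of GR was done in U2OS-GRα, a human osteosarcoma line that stably expresses GRα, after 48 h of siRNA and 1 h of 100 nM dexamethasone (dex). Cells received nonspecific siRNA alone (siNS/siNS), siRNA against Hic-5 (siHic5/siNS), the remodeler CHD9 (siCHD9/siNS) or the remodeler BRM (siBRM/siNS), or a double depletion (siCHD9/siHic5, siBRM/siHic5). There were 12 ChIP libraries, 2 replicates for each of the 6 combinations, and 6 input libraries, and all cells carried the GRα transgene and were treated with dex. The deposited data were 6 peak lists, 1 per combination, each called on pooled replicates, so no spread between replicates could be given and every interval covers counting error only.

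Gene deserts are long stretches of DNA without protein-coding genes. The rule used here measures only the distance from a TSS, so it also admits summits inside long protein-coding genes. Some of them hold enhancers that act on a gene far away, often one that encodes a developmental transcription factor. GR is a hormone-activated transcription factor that binds a palindromic glucocorticoid response element (GRE), frequently beside sites for other factors such as AP-1, and many of its binding regions lie far from promoters. Hic-5 (TGFB1I1) is a coregulator that keeps GR from some of its sites, while CHD9 and BRM (SMARCA2) are ATP-dependent chromatin remodelers. A siHic5/siNS peak with no overlapping siNS/siNS peak is called blocked below, and one with an overlapping siNS/siNS peak is called shared. Any overlap of at least 1 bp counted as a call in another list. A missing call says only that no peak passed the authors' threshold there.

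The sequences below show the 200 bases around the summit of desert peaks that represent each pattern of calls, on the plus strand of GRCh38. They were taken from the 6 strongest desert peaks, from the 2 strongest of each other class of calls, and from the peaks farthest from a gene. Each is named by the protein-coding genes on either side. Capitals mark matches to the letters GNACANNNTGTNC for GRE (at most 1 mismatch at the 8 defined positions), TGACTCA for AP-1, and CAGGAAGT or CCGGAAGT for ETS, read on both strands. A match describes the letters only and is not a shown binding site.
OTOS/GPC1, chr2:240251421-240251620, called in all 6 lists: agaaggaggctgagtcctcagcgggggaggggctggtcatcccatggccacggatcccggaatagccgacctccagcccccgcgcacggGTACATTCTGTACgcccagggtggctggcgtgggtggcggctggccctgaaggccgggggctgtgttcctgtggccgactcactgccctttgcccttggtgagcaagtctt
GADD45G/DIRAS2, chr9:89878851-89879050, called in all 6 lists: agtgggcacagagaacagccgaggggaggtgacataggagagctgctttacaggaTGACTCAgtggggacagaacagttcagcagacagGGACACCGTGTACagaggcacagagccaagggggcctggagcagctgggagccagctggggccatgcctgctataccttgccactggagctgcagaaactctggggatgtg
CELF4/PIK3C3, chr18:39946797-39946996, farthest from a protein-coding TSS, called in all 6 lists: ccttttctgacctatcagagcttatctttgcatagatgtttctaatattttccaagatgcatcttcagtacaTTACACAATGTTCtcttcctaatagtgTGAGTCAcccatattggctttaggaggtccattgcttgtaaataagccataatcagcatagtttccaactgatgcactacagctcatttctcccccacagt
CEBPB/PTPN1, chr20:50395374-50395573, called in siNS/siNS but not in all 6 lists: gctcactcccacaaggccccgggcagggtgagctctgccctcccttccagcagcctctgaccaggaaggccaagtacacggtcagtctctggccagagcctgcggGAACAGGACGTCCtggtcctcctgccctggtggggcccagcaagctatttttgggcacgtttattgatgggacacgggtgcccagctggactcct
TBC1D22A/TAFA5, chr22:47292567-47292766, blocked, called in both double depletions: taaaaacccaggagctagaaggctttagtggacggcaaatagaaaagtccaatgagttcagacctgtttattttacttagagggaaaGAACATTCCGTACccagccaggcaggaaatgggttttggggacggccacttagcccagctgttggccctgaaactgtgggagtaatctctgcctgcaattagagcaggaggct
KLF4/ACTL7B, chr9:108150819-108151018, blocked, called in both double depletions: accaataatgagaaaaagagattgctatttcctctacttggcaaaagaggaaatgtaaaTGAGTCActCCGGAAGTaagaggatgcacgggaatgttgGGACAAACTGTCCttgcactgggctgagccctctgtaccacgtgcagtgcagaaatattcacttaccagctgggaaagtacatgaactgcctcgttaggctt
RPS24/ZMIZ1, chr10:78443376-78443575, blocked, called after siBRM/siHic5 and not after siCHD9/siHic5: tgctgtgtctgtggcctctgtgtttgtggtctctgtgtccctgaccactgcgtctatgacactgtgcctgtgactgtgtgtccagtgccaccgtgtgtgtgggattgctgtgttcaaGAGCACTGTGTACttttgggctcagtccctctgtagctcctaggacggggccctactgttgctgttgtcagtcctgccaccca
SPATA31A6/SPATA31A5, chr9:60523799-60523998, blocked, called after siBRM/siHic5 and not after siCHD9/siHic5: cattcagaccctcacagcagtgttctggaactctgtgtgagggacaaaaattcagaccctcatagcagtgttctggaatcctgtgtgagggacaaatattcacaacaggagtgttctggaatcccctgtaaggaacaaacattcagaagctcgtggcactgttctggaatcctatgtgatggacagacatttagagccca
TBX3/MED13L, chr12:115151638-115151837, blocked, called after siCHD9/siHic5 and not after siBRM/siHic5: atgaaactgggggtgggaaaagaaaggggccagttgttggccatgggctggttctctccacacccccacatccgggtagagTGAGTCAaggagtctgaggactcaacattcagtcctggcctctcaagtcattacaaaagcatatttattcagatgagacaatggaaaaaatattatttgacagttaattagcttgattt
DPPA4/NECTIN3, chr3:109807069-109807268, blocked, called after siCHD9/siHic5 and not after siBRM/siHic5: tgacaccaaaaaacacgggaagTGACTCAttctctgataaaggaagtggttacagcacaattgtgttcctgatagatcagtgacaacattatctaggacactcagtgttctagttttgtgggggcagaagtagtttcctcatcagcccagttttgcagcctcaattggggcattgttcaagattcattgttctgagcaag
SYK/AUH, chr9:91100954-91101153, blocked, called in no other list: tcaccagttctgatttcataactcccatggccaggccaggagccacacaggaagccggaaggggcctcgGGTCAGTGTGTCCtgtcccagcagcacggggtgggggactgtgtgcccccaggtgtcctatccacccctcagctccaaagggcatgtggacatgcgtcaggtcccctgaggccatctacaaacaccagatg

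The lists held between 1276 (siBRM/siNS) and 9530 (siHic5/siNS) peaks on annotated chromosomes. Their lowest −log10 q-value ranged from 7.26 in siBRM/siNS to 14.2 in siBRM/siHic5, so a peak had to pass a different threshold in each. Gene deserts took a similar share of every list: 20.1% of siNS/siNS peaks, 22.4% of siCHD9/siHic5 peaks, 20.3% of siBRM/siHic5 peaks, 21.6% of siCHD9/siNS peaks and 20.7% of siBRM/siNS peaks, each by its own summits. The interval of the siCHD9/siHic5 share, the highest, was 20.8% to 24.1%. Sites overlap between lists, and the shares were not tested against each other.

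Desert peaks were sparser than other GR peaks and of like median strength. Sequence more than 100 kb from every protein-coding TSS made up 35.1% of the genome (1023 of 2911 Mb) and held 20.5% of the peaks. This came to 1.91 desert peaks per Mb of desert, against 4.01 other peaks per Mb of other sequence. Density was lower in deserts on all 23 chromosomes that held peaks, and it followed the density of other peaks: chromosome 22 had the most on both counts (5.60 and 9.44 per Mb) and chromosome X the fewest (0.545 and 1.06 per Mb). Chromosome 2 had the most desert peaks, with 237. The median −log10 p-value was 22.5 for desert peaks and 22.4 for the others, and the median widths were 495 and 508 bp. The ends of the range differed more. Of 10 equal groups by −log10 p-value, the weakest held 11.4% of desert and 9.65% of other peaks. The strongest held 8.76% and 10.3%. The median GC content of the 1 kb around the summit was 43.0% in deserts and 47.8% elsewhere.

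**Figure D1:**
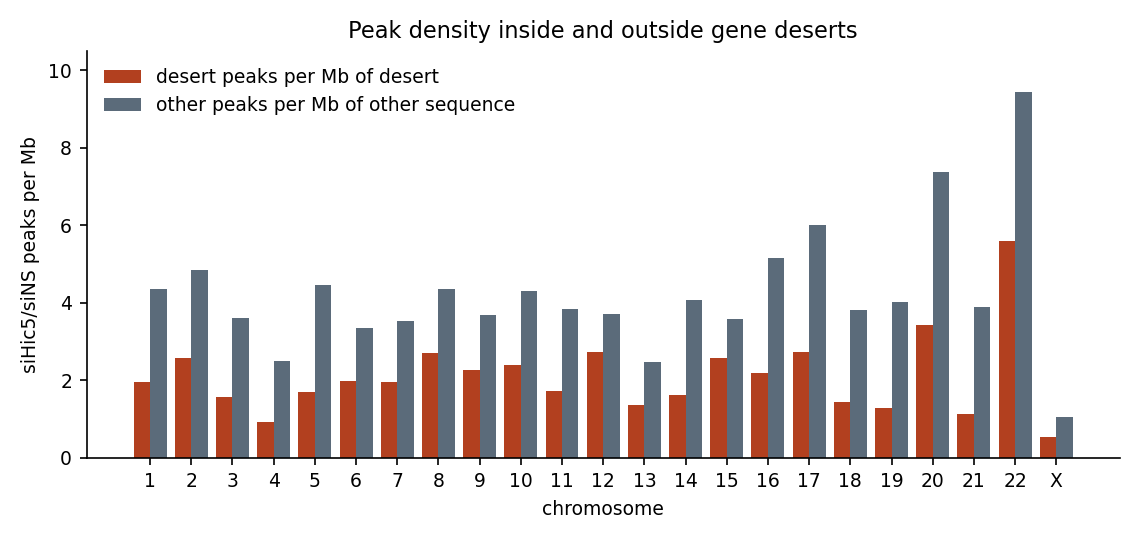
Number of siHic5/siNS GR peaks per Mb on each chromosome, with desert peaks over desert sequence (more than 100 kb from every protein-coding TSS) and the other peaks over the remaining sequence. Desert density was lower than other density on all 23 chromosomes, and both were highest on chromosome 22 (5.60 and 9.44 per Mb).

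Most desert summits lay outside protein-coding genes, which the distance rule favours. Of the desert summits, 996 (51.1%) lay outside any annotated gene and 677 (34.7%) lay in a long noncoding RNA (lncRNA) gene outside protein-coding genes, against 30.6% and 10.8% of other peaks. A further 259 (13.3%) lay deep inside an intron of a protein-coding gene, and 6 (0.308%) lay in an exon. Of other peaks, 51.9% lay in such an intron and 6.08% in such an exon. The noncoding classes were counted only outside protein-coding genes, so the rule itself shapes these contrasts. The share of desert sequence in lncRNA genes was not computed, so no preference for lncRNA genes follows. The median distance to the nearest lncRNA TSS was 40.5 kb, and 121 members (6.20%) had one within 1 kb, close to the 6.04% of other peaks. When lncRNA starts were counted as well, 536 of the 1951 peaks stayed more than 100 kb from every TSS.

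The nearest protein-coding TSS was at a median of 206 kb from desert summits. There were 945 desert peaks at 100 to 200 kb, 751 at 200 to 500 kb and 255 beyond 500 kb. The farthest peak lay on chromosome 18 between CELF4, which encodes an RNA-binding protein, and PIK3C3, the class III phosphoinositide 3-kinase, 2008 kb from the latter. It was called in all 6 lists and ranked 503 by −log10 p-value in siHic5/siNS. A neighbour at 1994 kb ranked 5191 and was called only in siHic5/siNS and siCHD9/siHic5. At the distance limit, the nearest members stood at 100.172 kb from SSBP2 and 100.39 kb from ATP10A, each called in siHic5/siNS alone. Just below it were a peak at 99.957 kb from NPTX2, also called in siNS/siNS and siBRM/siHic5, and one at 99.899 kb from PMEPA1, called in siHic5/siNS alone.

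The interval of the difference in blocked GBR between deserts and other sequence included 0, but not under every definition of a desert. siNS/siNS called 489 of the 1951 desert peaks (25.1%, with 25.9% over all siHic5/siNS peaks), so that 1462 (74.9%) were blocked (74.1% over all). The desert share called in siNS/siNS was 1.10 percentage points below that of other peaks (interval −3.22 to 1.10). Weak peaks are missed more easily in any list, so shares were also compared within 10 equal groups of −log10 p-value (Mantel-Haenszel difference). At like strength the difference was −0.05 points (−1.65 to 1.56). Without matching, the siNS/siNS share was below that of other peaks when the limit was 200 kb, by −2.99 points (−5.67 to −0.13), and when lncRNA starts were added, by −4.75 points (−8.14 to −0.97). With lncRNA starts the difference at like strength was −1.48 points (−4.20 to 1.25). Blocked desert peaks had a median −log10 p-value of 18.8 and shared desert peaks one of 51.5. With distance, the siNS/siNS share was 27.0% at 100 to 200 kb, 23.8% at 200 to 500 kb and 21.6% (17.0% to 27.0%) beyond 500 kb.

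Desert peaks were called more often than other peaks after the double depletion of CHD9 and Hic-5. siCHD9/siHic5 called 526 desert peaks (27.0%, interval 25% to 29%), against 24.0% of other peaks and 24.6% of all. The difference was 3.0 points (0.845 to 5.22), and 4.01 points (2.35 to 5.67) at like strength. In 9 of 10 strength groups the desert share was the higher, for example 128 of 186 desert peaks against 439 of 767 other peaks in the group next to the strongest. The share climbed with distance, from 22.7% within 10 kb of a TSS and 24.9% at 10 to 100 kb to 25.8%, 27.4% and 29.8% in the 3 desert bands, and the interval of the last was 24.5% to 35.7%. Against peaks 10 to 100 kb from a TSS alone, the difference was 2.07 points (−0.246 to 4.45), and 3.03 points (1.27 to 4.80) at like strength. Against all other peaks, within groups of both strength and GC content, it was 3.22 points (1.53 to 4.91). Without matching, the interval also included 0 when 1 TSS per gene was used (1.36 points), when lncRNA starts were added (1.24 points), when all lists were held to the highest q-value threshold (1.77 points) and when neighbouring peaks were counted once (2.51 points). At like strength it left out 0 in each of these settings (2.97, 4.42, 4.04 and 5.62 points).

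After the double depletion of BRM and Hic-5, the interval of the difference included 0. siBRM/siHic5 called 665 desert peaks (34.1%, with 34.6% over all), 0.68 points below other peaks (−3.02 to 1.70) and 0.07 points above them at like strength (−1.61 to 1.76). With lncRNA starts added it was −5.06 points (−8.91 to −0.937) without matching and −1.59 points (−4.47 to 1.30) at like strength. Its share was 35.9%, 33.0% and 30.6% in the desert bands from near to far. The single depletions called fewer: siCHD9/siNS 295 desert peaks (15.1%, with 14.5% over all) and siBRM/siNS 251 (12.9%, with 13.1% over all). The siCHD9/siNS share was 0.818 points higher in deserts (−0.904 to 2.65), and 1.96 points higher at like strength (0.644 to 3.28). Against peaks 10 to 100 kb from a TSS it was 1.3 points higher at like strength (−0.11 to 2.70). For siBRM/siNS the difference was −0.25 points (−1.86 to 1.48), and 0.89 points (−0.33 to 2.11) at like strength. The desert and other sets were compared within each list and not between lists, since all comparisons share the same siHic5/siNS peaks.

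**Figure D2:**
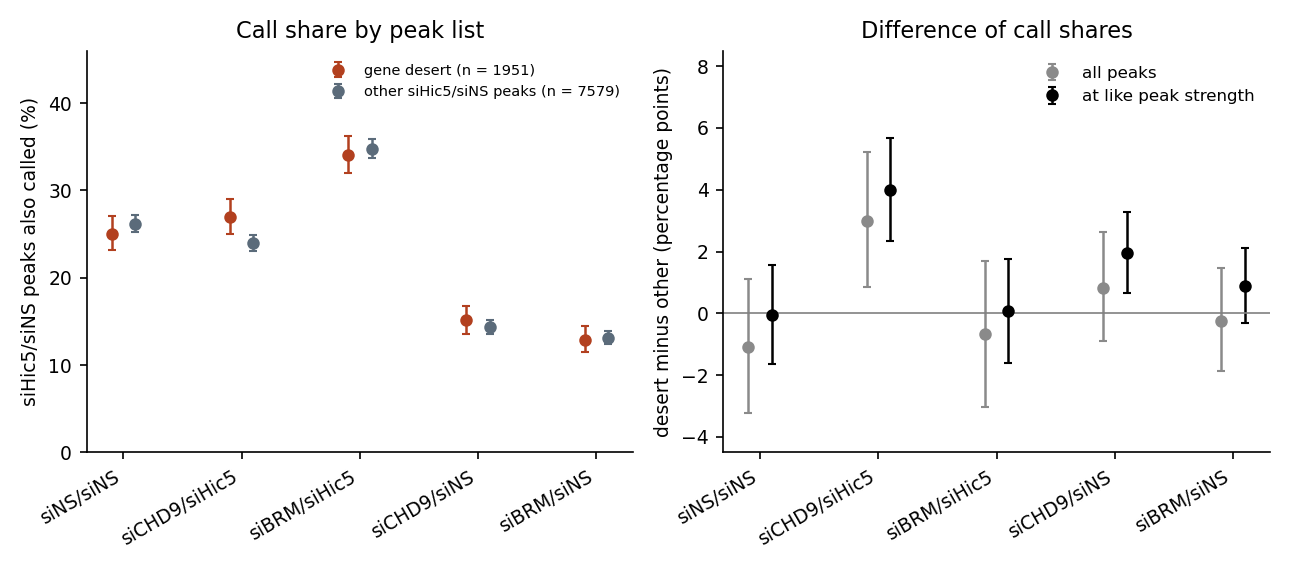
Left, percentage of siHic5/siNS peaks that overlapped a peak in each other list, for desert and other peaks. Right, desert minus other in percentage points, over all peaks and at like peak strength, with 95% intervals from counting error in both panels. The siCHD9/siHic5 difference (3.0 points over all peaks, 4.01 at like strength) lay above 0, and the siNS/siNS and siBRM/siHic5 intervals included 0.

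**Figure D3:**
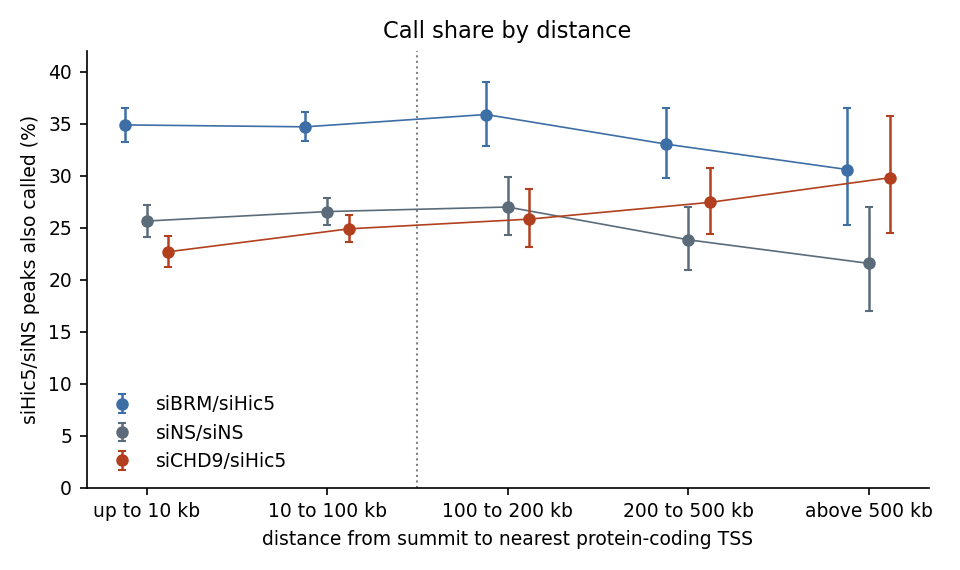
Percentage of siHic5/siNS peaks called in siBRM/siHic5, siNS/siNS and siCHD9/siHic5 against the distance of the summit from the nearest protein-coding TSS, with 95% Wilson intervals; the dotted line is the limit for desert peaks. The siCHD9/siHic5 share went from 22.7% to 29.8% and the siNS/siNS share from 25.6% to 21.6%, with wide intervals beyond 500 kb (255 peaks).

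**Figure D4:**
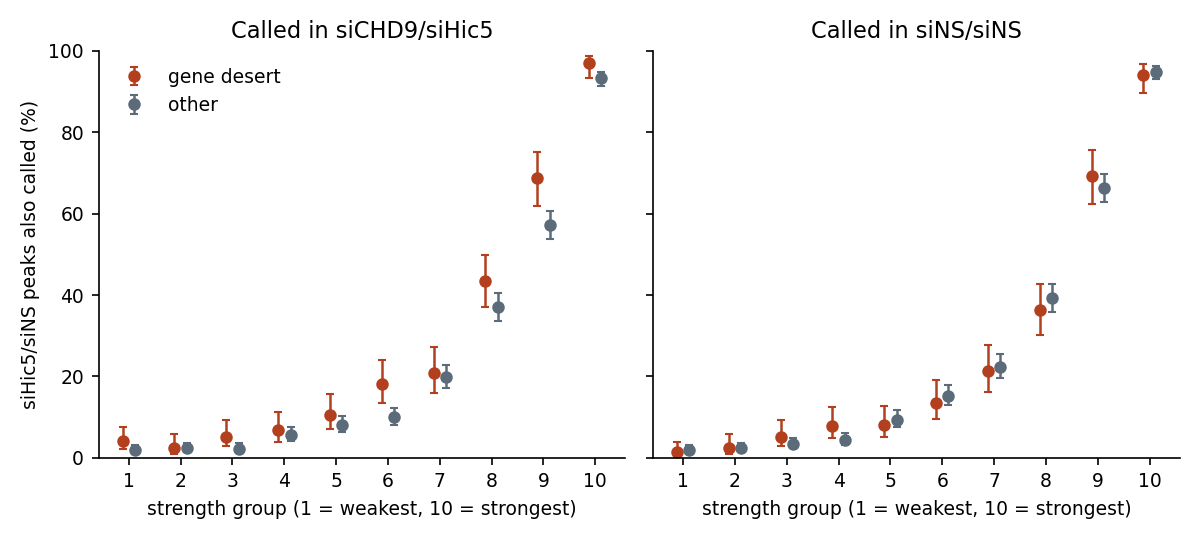
Percentage of desert and other siHic5/siNS peaks called in siCHD9/siHic5 (left) and siNS/siNS (right) in 10 groups of −log10 p-value, with 95% Wilson intervals. Desert peaks had the higher siCHD9/siHic5 share in 9 of 10 groups and the higher siNS/siNS share in 4 of 10.

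Grouped by their calls, 168 desert peaks (8.61%, with 9.24% over all siHic5/siNS peaks) were called in all 6 lists and 321 (16.5%, with 16.7% over all) in siNS/siNS but not in all 6. The blocked desert peaks made up the rest, again as shares of all 1951. Of them, 1134 (58.1%, with 58.8% over all) were called in neither double depletion. Another 145 (7.43%, with 8.22% over all) were called in siBRM/siHic5 but not siCHD9/siHic5, 81 (4.15%, with 2.81% over all) in siCHD9/siHic5 but not siBRM/siHic5, and 102 (5.23%, with 4.19% over all) in both. The excess over other peaks in the siCHD9/siHic5-only class was 1.68 points (0.802 to 2.72), and in the class called in both it was 1.31 points (0.296 to 2.46). Of all blocked desert peaks, siCHD9/siHic5 called 183 of 1462 (12.5%), against 8.65% of other blocked peaks, a difference of 3.87 points (2.10 to 5.80), and of 3.67 points at like strength (1.96 to 5.37). Of shared desert peaks it called 343 of 489 (70.1%), against 67.2% of other shared peaks, a difference of 2.97 points (−1.69 to 7.39), and of 5.15 points at like strength (1.28 to 9.02). siBRM/siHic5 called 16.9% of blocked desert peaks and 16.7% of other blocked peaks. In all, 1132 desert peaks (58.0%) were called in siHic5/siNS alone, against 58.9% of other peaks.

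The strongest desert peaks were called in every list. The peak between OTOS (otospiralin) and GPC1, which encodes a cell-surface heparan sulfate proteoglycan, ranked 14 of all siHic5/siNS peaks and lay at chr2:240251018-240252231 in a lncRNA gene, 107 kb from OTOS. Its signal value, the authors' enrichment score, was 37.6 in siHic5/siNS, 31.5 in siNS/siNS, 34.5 in siCHD9/siHic5, 35.5 in siBRM/siHic5, 38.7 in siCHD9/siNS and 33.6 in siBRM/siNS. Its rank was between 1 and 7 in each of the other 5 lists. The unit of the signal value is not settled, so these values are set side by side without comparison. The peak at chr9:89878448-89879430, 274 kb from GADD45G, a stress-response gene, ranked 35 in siHic5/siNS with a signal value of 46.1. It ranked 99 in siNS/siNS, 46 in siCHD9/siHic5, 67 in siBRM/siHic5, 64 in siCHD9/siNS and 131 in siBRM/siNS. The other 4 of the strongest 6 lay between PMEPA1 and C20orf85 (rank 27), JAG1 and BTBD3 (rank 41), CFAP418 and GDF6 (rank 43) and COBL and POM121L12 (rank 50). JAG1 encodes a Notch ligand and GDF6 a BMP-family growth factor. All 6 were called in all 6 lists and held a GRE match within the 200 bp around the summit.

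Some strong desert peaks had no call in some lists. Of the peaks called in siNS/siNS but not everywhere, the strongest lay at chr20:50395066-50395836. PTPN1 was the nearest gene, at 115 kb, and CEBPB stood 205 kb away on the other side. CEBPB encodes a bZIP transcription factor induced by glucocorticoids in several tissues. The peak had rank 218 in siHic5/siNS, 447 in siNS/siNS, 1942 in siCHD9/siHic5, 469 in siBRM/siHic5 and 441 in siBRM/siNS, in lists of unequal length. It had no call in siCHD9/siNS. Its sequence above holds a GRE match. The strongest blocked peak called in both double depletions lay at chr22:47292328-47293146, 519 kb from TBC1D22A, with rank 460 in siHic5/siNS, 1230 in siCHD9/siHic5, 597 in siBRM/siHic5 and 1037 in siCHD9/siNS. The next, chr9:108150650-108151231, stood 660 kb from KLF4, a zinc-finger factor of stem and epithelial cells, with rank 510 in siHic5/siNS, 1372 in siCHD9/siHic5 and 1302 in siBRM/siHic5. Its sequence above holds a GRE, an AP-1 and an ETS match.

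Blocked peaks called in a single double depletion were led by weaker regions. For siCHD9/siHic5 without siBRM/siHic5 these were chr12:115151414-115151940, 468 kb from TBX3, a limb and heart T-box factor (rank 897 in siHic5/siNS and 809 in siCHD9/siHic5), and chr3:109806940-109807610, 470 kb from DPPA4 (ranks 1218 and 1701). Both held an AP-1 match and no GRE match in the window printed above. For siBRM/siHic5 without siCHD9/siHic5 the first was chr9:60523418-60524297 (ranks 714 and 1725), which was also called in siBRM/siNS. It lay 391 kb from SPATA31A5 near the centromere, held none of the 3 motifs, and its printed sequence repeats the same phrase several times. Reads in repeated DNA are hard to place, and the part of mapping in this call was not tested. The second was chr10:78442873-78443824, 405 kb from RPS24 (ranks 1140 and 2957), with a GRE match. The strongest blocked peaks called nowhere else were chr9:91100825-91101339, 120 kb from AUH (rank 1060), and chr9:129490977-129491709, 118 kb from NTMT1 (rank 1214).

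Desert peaks had a close neighbour less often than other peaks. Another siHic5/siNS summit lay within 50 kb of 1004 members (51.5%), against 61.7% of other peaks, and 960 members fell in 356 runs spaced under 50 kb. Peak density was also lower in deserts, and spacing at like density was not tested. Of 2458 deserts, each an unbroken stretch more than 100 kb from every protein-coding TSS, 812 (33.0%) held at least 1 member, 402 held exactly 1 and 94 held 5 or more, which together accounted for 717 members. Deserts with a member were longer, with a median of 0.418 Mb against 0.0994 Mb for those without. A longer stretch has more room for a peak, so no conclusion was drawn from this difference. A run between ERRFI1, a feedback inhibitor of the epidermal growth factor receptor, and SLC45A1 held 9 members over 56.4 kb of chromosome 1, a number equalled by runs beside SOX9 and CEBPB. Its summits lay 129 to 186 kb from ERRFI1 and 106 to 162 kb from SLC45A1. Those with ranks 877, 576 and 456 stood nearer to SLC45A1, at 128, 120 and 115 kb. The members with ranks 877 and 576 were called in all 6 lists, the one with rank 456 in all but siBRM/siNS, and the other 6, with ranks 4388 to 9397, in siHic5/siNS alone. Strong peaks called in every list thus stood in the same run as weak peaks called in siHic5/siNS alone.

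The deserts with the most members were picked after their counts were seen. Some of their border genes encode transcription factors, such as MYC, SOX9, KLF4 and IRX1, and others, such as CRYBA4 and SLC39A11, do not. The share of transcription factor genes among all desert borders was not computed, so no enrichment follows. The desert between MYC and GSDMC held 22 members, of which siNS/siNS called 10, siCHD9/siHic5 6 and siBRM/siHic5 9. The desert between CRYBA4 and MN1 held 19, of which these lists called 9, 8 and 13. The desert between SOX9, the chondrocyte factor, and SLC39A11 held 15 members in 0.405 Mb, called 5, 5 and 6 times, and only 4 had a GRE match. The desert between CITED2 and NMBR, at 2.50 Mb the longest of these, held 15, of which siNS/siNS called 2, siCHD9/siHic5 none and siBRM/siHic5 1. The KLF4 to ACTL7B desert held 14, called 4, 7 and 4 times, and the IRX1 to ADAMTS16 desert 14, called 2, 2 and 2 times. Over all siHic5/siNS peaks, siNS/siNS called 25.9%, siCHD9/siHic5 24.6% and siBRM/siHic5 34.6%. The counts in single deserts are small and were not compared between deserts. A run of 6 members on chromosome 9 beside FOXD4L6 contained the widest desert peaks, of 7889 and 4742 bp, in a part of the genome with near-identical gene copies, and mapping was not tested there either.

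The 2 gene lists, drawn up with earlier results of these data known, were looked up as nearest protein-coding genes. Of 30 glucocorticoid response genes, 10 bordered a desert and 7 were nearest to at least 1 desert peak, 22 peaks in all. These were CEBPB (6 peaks), SGK1 and KLF6 (5 each), ERRFI1 (3), and KLF9, TFCP2L1 and TNFAIP3 (1 each). SGK1 encodes a kinase that controls sodium transport, KLF6 and KLF9 zinc-finger factors, and TNFAIP3 an inhibitor of NF-κB signalling. Of the 5 SGK1 peaks, 105 to 247 kb from its TSS, siNS/siNS called 1, siCHD9/siHic5 2 and siBRM/siHic5 3, while none of the 3 ERRFI1 peaks was called in these lists. Of 56 skeletal and developmental regulators, 51 bordered a desert and 34 were nearest to at least 1 desert peak, 92 peaks in all. SOX9 had 16 peaks at 197 to 682 kb, of which siNS/siNS called 2, siCHD9/siHic5 4 and siBRM/siHic5 5. ZEB2, a repressor of epithelial genes, had 5, called 4, 5 and 5 times, and CDH11, an osteoblast cadherin, had 4, called in none of the 3 lists. RUNX2, the osteoblast factor, had 3, called 1, 1 and 2 times. Of all siHic5/siNS peaks, these lists called 25.9%, 24.6% and 34.6%, and the counts per gene are too small to set against those shares. Over all protein-coding genes that border a desert, 977 of 3405 (28.7%) were nearest to a desert peak. The length of the deserts beside the listed genes was not taken into account, so nothing particular to either list follows from these counts.

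Desert summits held a GRE match slightly more often than other summits, by a margin that depended on the pattern. In the 200 bp around the summit, 1210 desert peaks (62.0%, interval 59.8% to 64.1%) had one, against 59.5% of other peaks, 60.0% of all and 6.00% of the windows 5 kb to either side. The difference was 2.51 points (0.075 to 4.91), and 2.84 points (0.447 to 5.23) at like strength. It was 3.22 points (0.728 to 5.70) in a 100-bp window, 2.66 points (0.416 to 4.83) in a 1-kb window and 0.495 points (−1.36 to 2.45) when no mismatch was allowed. The match nearest to the summit lay at a median of 21 bp in deserts and 22 bp elsewhere. Shared desert peaks had a GRE match more often (73.6%) than blocked ones (58.1%), as in other peaks (74.1% and 54.3%). At like strength, desert peaks with a GRE match were called in siNS/siNS 4.04 points more often than those without (1.12 to 6.96), and in siCHD9/siHic5 0.52 points less often (−3.58 to 2.53). In other peaks the siNS/siNS value was 4.27 points (2.79 to 5.75). Deserts and other peaks differed by −0.23 points in it (−3.51 to 3.04), and by −0.94 points in siCHD9/siHic5 (−4.33 to 2.44).

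An AP-1 match was found in 401 desert peaks (20.6%, with 19.4% over all and 3.87% in the flanking windows), 1.43 points more than in other peaks (−0.52 to 3.48). The difference was 2.75 points (0.348 to 5.19) in a 1-kb window and 2.70 points (0.545 to 4.92) when any middle base was allowed. AP-1, the dimer of FOS and JUN proteins, often opens enhancers that GR uses. Desert peaks with the match were called in siCHD9/siHic5 far more often than those without: 159 of 401 (39.7%) against 367 of 1550 (23.7%), or 9.31 points at like strength (5.35 to 13.3). In siNS/siNS the shares were 25.2% and 25%, and at like strength the match went with fewer calls, by −6.53 points (−9.78 to −3.28). In other peaks this value was −3.29 points (−5.06 to −1.52), and deserts differed from it by −3.24 points (−6.94 to 0.457). Of the 81 blocked desert peaks called in siCHD9/siHic5 but not siBRM/siHic5, 34 (42%) had an AP-1 match, as had 36 of 102 (35.3%) called in both, 26 of 145 (17.9%) called in siBRM/siHic5 but not siCHD9/siHic5, and 204 of 1134 (18.0%) called in neither. In other peaks the shares of these classes, in the same order, were 36.4%, 40.7%, 23.0% and 17.0%. Among peaks called in all 6 lists, 31.0% of desert peaks (24.5% to 38.3%) had an AP-1 match. Of the other peaks in this class, 20.8% (17.9% to 23.9%) had one. In the class called in siNS/siNS but not in all 6, the desert and other shares were 15.3% and 16.2%. At like strength, the contrast by AP-1 match in siCHD9/siHic5 was 9.83 points in other peaks (7.84 to 11.8). The difference between deserts and other peaks in this contrast was −0.52 points (−4.96 to 3.91). Within groups of both strength and AP-1 match, desert peaks were called in siCHD9/siHic5 3.79 points more often than other peaks (2.15 to 5.43).

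In siBRM/siHic5 the unmatched shares by AP-1 match were similar in deserts and elsewhere. Desert peaks were called in 39.2% of cases with the match and 32.8% without, and other peaks in 40.6% and 33.4%. A difference appeared only at like strength. There, desert peaks with and without the match differed by −0.66 points (−4.38 to 3.05), while other peaks differed by 6.24 points (4.29 to 8.2). The difference between these values was −6.91 points (−11.1 to −2.71), the only interval of 15 such contrasts (3 motifs in 5 lists) that left out 0.

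**Figure D5:**
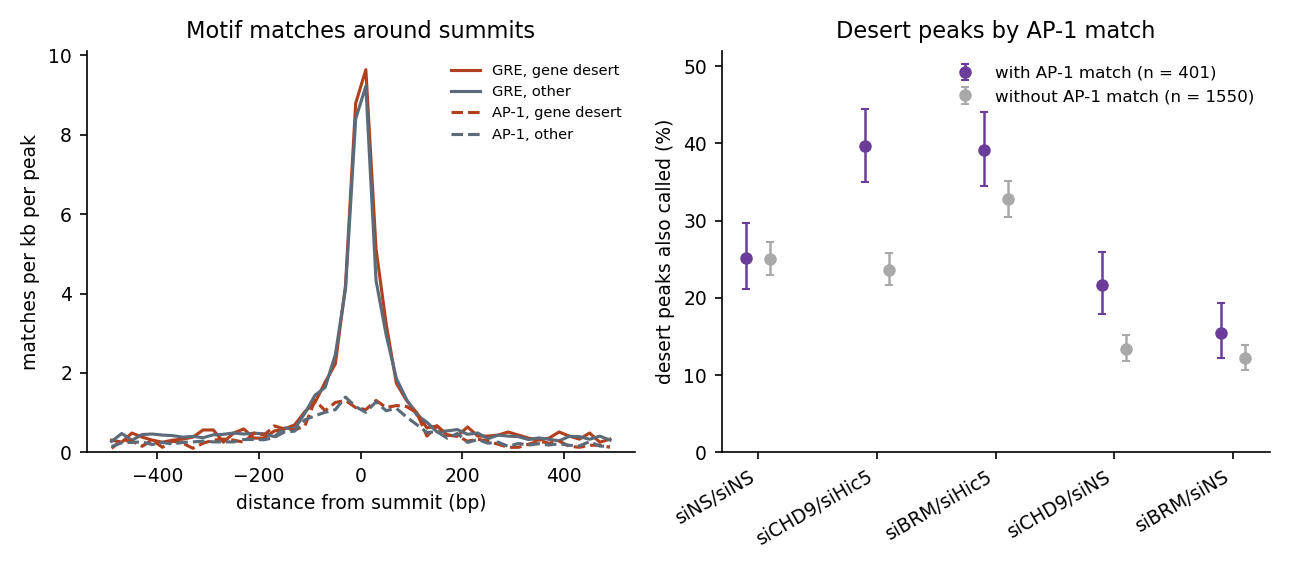
Left, GRE and AP-1 matches per kb per peak in 20-bp steps around the summit of desert and other siHic5/siNS peaks. Right, percentage of desert peaks called in each list by whether an AP-1 match lay within the 200 bp around the summit, with 95% Wilson intervals. GRE matches peaked at the summit in both sets, and the widest gap between desert peaks with and without AP-1 was in siCHD9/siHic5 (39.7% and 23.7%).

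Exact ETS matches were rare in the 200-bp windows: 94 desert peaks (4.82%, with 4.76% over all and 1.23% in the flanking windows), 0.07 points from other peaks (−0.93 to 1.21). In a 1-kb window 215 desert peaks had one, and the difference from other peaks was −0.71 points (−2.22 to 0.918). With the last base of the pattern left out, the desert share was lower by −2.34 points (−4.00 to −0.564). Blocked and shared desert peaks had an ETS match within the 200 bp in 4.99% and 4.29% of cases, and other peaks in 5.24% and 3.38%. The authors searched a de novo motif in a 1-kb window, in blocked GBR that they defined by a test of differential binding. Blocked here means only that no siNS/siNS peak overlapped, so these shares cannot be set against their ETS result. The letters of 5 other factors were searched in the same 200-bp windows. ACATTCC (TEAD) was in 10.7% of desert windows and 9.91% of all, TGTGGTT (RUNX) in 7.12% and 6.25%, and TGTTTAC (FOX) in 4.46% and 3.75%, and the interval of each difference from other peaks included 0. TTGCNNAA (C/EBP) was in 13.8% of desert and 10.4% of other windows, a difference of 3.43 points (1.81 to 5.17), and in 11.7% and 9.48% of their flanks. The letters of CTCF, CCNNNAGGNGGC, were in 12 desert windows (0.615%), against 1.25% of other windows, a difference of −0.638 points (−1.02 to −0.128). In the flanks the shares were 0.564% and 0.851%.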

How the data were processed

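GR ChIP-seq was done in U2OS-GRα cells. After trimming, the authors aligned the single-end reads to GRCh38/hg38 (BWA), discarded duplicates and mitochondrial reads, pooled the replicates for MACS2 peak calling and filtered the peaks by IDR. Versions and the IDR threshold are not given in the sources used here. The deposited lists give each peak a signal value, whose unit the sources describe either as fold enrichment or as enrichment in CPM, so it was printed without a unit and not compared between lists. The deposited lists also give, from MACS2, a −log10 p-value and its q-value on the same scale. Depth acts on both and on which weak peaks are called. Each list is pooled, so there is no replicate spread.

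TSS were the starts of all transcripts of protein-coding genes in GENCODE release 44. Of 9533 siHic5/siNS peaks, 3 on contigs without annotation were set aside. Shares have 95% Wilson intervals, differences have Newcombe intervals, and matched differences are Mantel-Haenszel differences over 10 strength groups. No p-value was computed. Motifs were searched as letters in 200-bp windows, and the share of repeat-masked bases was not computed because the reference has no masking. Members and gene lists were chosen with earlier results of these data known. The named peaks were, by rule, the 6 strongest, the 2 strongest of each call class, the 3 farthest, 4 at the distance limit and the run with the most members. Overlaps, distances, intervals and motif search were tested on simulated data. Alternatives were other TSS sets, limits, overlap rules, thresholds, strength groups, windows and patterns. Python 3.11.15 with NumPy 2.4.6, pandas 2.3.3 and pysam 0.24.0, samtools 1.23.1 and bedtools 2.31.1 were used.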

Additional observations from a re-analysis of the deposited data

How the results depend on the processing

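No paired analysis was possible because each list pools its replicates, and for the same reason no replicate could be left out. An interval that leaves out 0 stands for a call. The desert count was 3159 with 1 TSS per gene, 536 with lncRNA starts added, 3254 at a 50-kb limit, 1006 at 200 kb and 177 among the 1000 strongest peaks of each list. Of 55 unmatched call share differences under alternatives, 46 kept their call. Their interval left out 0 on the same side as before, or included 0 as before whatever the sign. The siNS/siNS difference was −4.75 points with lncRNA starts and −2.99 at 200 kb. The siCHD9/siHic5 difference was 1.36 with 1 TSS per gene, 1.24 with lncRNA starts, 1.77 at a common q-value threshold (−log10 q of 14.2) and 2.51 with neighbours counted once, all with intervals that included 0. The siBRM/siHic5 difference was −5.06 with lncRNA starts, siCHD9/siNS 1.99 when the overlap had to be reciprocal and siBRM/siNS −2.31 at the common threshold. Of the matched differences, siCHD9/siNS was 1.3 against peaks 10 to 100 kb from a TSS, 1.03 with 1 TSS per gene and 1.835 with lncRNA starts, with intervals that included 0, and siBRM/siNS was 1.62 with strength as signal value. The matched siCHD9/siHic5 difference stayed above 0 in all 10 alternatives, from 2.97 to 5.62 points. The alternatives that crossed strength with GC content or AP-1, changed the comparison set, or applied TSS sets, the common threshold and neighbour counting to matched values were chosen after seeing the data. The GRE difference was 0.495 with no mismatch, AP-1 2.75 in a 1-kb window and 2.70 with any middle base, and ETS −2.34 with the 7-base core. The cause of these changes was not tested. Depth limits what a missing call means, and the intervals cover counting error only.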
